A study of Mus musculus with 12 samples.

Results

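Chemokines are small secreted or membrane-anchored proteins that direct the migration of leukocytes. The 10 chemokine genes described here are Cxcl1, Cxcl2, Cxcl5, Cxcl9, Cxcl10, Cxcl12, Cxcl16, Ccl2, Ccl7 and Cx3cl1, chosen by symbol from the 24147 genes in the count files, and each symbol was found. They were measured by RNA sequencing in the epithelial cells that stay on the lens capsule when the fiber cells of the lens are removed in the living mouse, which models cataract surgery. All mice were 2 months old, and capsules with their attached cells were collected at 0 h, directly after the operation, or 48 h later. The wild type (WT) strain was C57BL/6. FNcKO mice carry a conditional knockout of fibronectin on a mixture of C57BL/6, 129 and FVB/N, so an effect of the knockout and one of the strain background cannot be told apart. The sources used here do not name the Cre driver, the deleted exons or how many animals or lenses a library holds. There were 12 libraries in 4 groups of 3, which are WT 0 h, WT 48 h, FNcKO 0 h and FNcKO 48 h. The design text speaks of biological triplicates, and the p-values measure the spread between these samples.

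Library totals ran from 8368160 to 10862573 counts. Levels are CPM, read counts scaled to a common library total with TMM factors, given as mean ± SD with n = 3 unless each library is named. Fn1, the targeted gene, stood at 18.9, 23.0 and 15.5 CPM in the WT 0 h libraries and at 1513, 527 and 978 CPM in the WT 48 h libraries. In the FNcKO libraries it stood at 16.8, 9.80 and 8.31 CPM at 0 h and at 146, 297 and 687 CPM at 48 h. FNcKO 48 h replicate 3 thus lay within the range of the WT 48 h libraries, and the genotypes did not differ past the threshold (log2 −1.42 at 48 h, edgeR adjusted p = 0.713; log2 −0.72 at 0 h, adjusted p = 0.609). A gene count can include exons outside a deletion, so Fn1 is no full check of the FNcKO label. All 8 lens epithelial markers (Pax6, Foxe3, Cdh1 and others) had counts in every library. They summed to 2621 to 3579 CPM in WT and 4171 to 4772 CPM in FNcKO at 0 h. At 48 h the sums were 1790 to 1940 and 1417 to 2251 CPM. The 7 corneal epithelial markers summed to 750 to 1123 CPM in WT and 1791 to 2686 CPM in FNcKO at 0 h. Their sums at 48 h were 364 to 989 and 699 to 1350 CPM. The part of corneal cells in the libraries was not tested. A further deposited table of 9 libraries lists, under the name of WT 0 h replicate 1, counts identical to those of FNcKO 0 h replicate 1 for each of the 24147 genes. The library's own file was used, and values without both 0 h replicate 1 libraries are given where they change a call.

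Chemokines bind G protein-coupled receptors on leukocytes. Those with a glutamate-leucine-arginine motif before the paired cysteines (Cxcl1, Cxcl2, Cxcl5) act on Cxcr2 and attract neutrophils, Cxcl9 and Cxcl10 act on Cxcr3 of activated T and NK cells, and Ccl2 and Ccl7 act on Ccr2 of monocytes. Cxcl12 binds Cxcr4 and the scavenging receptor Ackr3, while Cxcl16 and Cx3cl1 are made as membrane-anchored proteins that bind Cxcr6 and Cx3cr1 and can be released by the proteases Adam10 and Adam17. Many chemokine genes are switched on by the transcription factor NF-κB in inflammation, and Cxcl9 and Cxcl10 also by interferons.

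The 10 genes lie on 4 chromosomes (mm10). Cxcl5 (90759298 to 90761625), Cxcl1 (90891245 to 90893115), Cxcl2 (90903899 to 90905938), Cxcl9 (92321331 to 92328079) and Cxcl10 (92346639 to 92348889) are on chromosome 5, with 10.783 kb between Cxcl1 and Cxcl2 and 18.559 kb between Cxcl9 and Cxcl10. Ccl2 (82035577 to 82037452) and Ccl7 (82045712 to 82047523) are neighbours on chromosome 11, 8.259 kb apart, and Cxcl16 (70454234 to 70459984) is on the same chromosome. Cxcl12 is on chromosome 6 (117168535 to 117181368) and Cx3cl1 on chromosome 8 (94772180 to 94782426). All are protein-coding. In the GENCODE annotation Cxcl10 lies wholly inside the span of Art3 on the opposite strand, Ccl2 wholly inside Gm17268, and Cxcl16 shares 552 of its 5751 bases with Zmynd15. If the counting did not use strand, reads from exons that such a pair shares cannot be told apart. Only whole gene spans, introns included, were compared, so a shared exon was not shown. Art3 held 0 to 6 counts and Zmynd15 1 to 18 counts per library. The symbol Gm17268 matched no single entry among the counted genes, so it has no level here.

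RefSeq promoters (GRCm38.p6) were at hand for 6 of the genes, which are Cxcl1, Cxcl2, Cxcl9, Cxcl10, Cxcl12 and Cx3cl1. Each window holds the 250 bases before the annotated start. Both strands were searched for the NF-κB consensus and for the core of the interferon-stimulated response element (ISRE), GAAANNGAAA. The windows of the 3 genes with a match are shown, because these genes were at or near 0 directly after surgery and higher at 48 h, and Cx3cl1 is shown beside them, because it was already abundant at 0 h. Capitals mark the matches, read 5′ to 3′ on the strand of the gene; matches that overlap each other, on one strand or both, are marked as 1 stretch.
Cxcl1: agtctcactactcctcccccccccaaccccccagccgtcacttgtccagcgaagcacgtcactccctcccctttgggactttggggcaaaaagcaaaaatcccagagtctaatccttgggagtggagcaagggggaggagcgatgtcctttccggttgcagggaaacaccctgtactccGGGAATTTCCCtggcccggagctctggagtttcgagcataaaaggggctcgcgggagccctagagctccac
Cxcl2: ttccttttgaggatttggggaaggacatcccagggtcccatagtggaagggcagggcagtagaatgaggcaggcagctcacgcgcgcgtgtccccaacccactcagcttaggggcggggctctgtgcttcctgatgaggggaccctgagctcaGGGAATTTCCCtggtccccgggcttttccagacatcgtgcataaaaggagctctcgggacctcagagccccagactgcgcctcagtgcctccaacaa
Cxcl10: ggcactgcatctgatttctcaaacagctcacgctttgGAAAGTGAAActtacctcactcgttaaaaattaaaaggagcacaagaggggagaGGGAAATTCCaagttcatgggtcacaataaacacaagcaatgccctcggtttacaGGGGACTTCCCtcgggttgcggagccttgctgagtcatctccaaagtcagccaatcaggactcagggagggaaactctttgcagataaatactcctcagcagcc
Cx3cl1: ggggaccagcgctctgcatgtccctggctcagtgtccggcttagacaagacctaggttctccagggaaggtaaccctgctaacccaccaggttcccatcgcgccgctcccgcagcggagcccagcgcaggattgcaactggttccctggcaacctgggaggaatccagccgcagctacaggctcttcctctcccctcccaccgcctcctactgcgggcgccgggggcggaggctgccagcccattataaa
The windows are chr5:90890995-90891244 for Cxcl1, chr5:90903649-90903898 for Cxcl2 and chr8:94771930-94772179 for Cx3cl1 on the plus strand, and chr5:92348890-92349139 on the minus strand for Cxcl10. Counted back from the start, the NF-κB match covers bases −71 to −61 in Cxcl1 and −97 to −87 in Cxcl2. Both genes carry the same run of 14 bases there, GGGAATTTCCCTGG. Cxcl10 has 1 NF-κB match at −159 to −150, overlapping matches from −104 to −94, and the ISRE core at −213 to −204. No match was found in the windows of Cxcl9, Cxcl12 and Cx3cl1, which says only that these letters are not in them. Of these genes, Cxcl12 also rose over time, and Cxcl9 had few counts at both times. Whether a match goes with a rise was not tested. Of 32851 RefSeq windows of this length, 7.25% held the NF-κB consensus and 2.98% the ISRE core, and among the windows of 21 other chemokine ligands the numbers were 4 and 2. A match is a description of the letters and not a shown binding site.

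Between 0 h and 48 h the chemokines rose in both genotypes. In WT, each of the 9 genes that passed the filter on low counts was higher at 48 h (edgeR quasi-likelihood test, adjusted p under 0.05), where 19.1% of all 14560 tested genes were called higher. In FNcKO, 8 of the 9 were called higher, against 14.9% of all genes, and Cx3cl1 missed the threshold. None was called lower in either genotype, where 13.5% of all genes in WT and 9.9% in FNcKO were. Cxcl9 did not pass the filter, and genes with almost no counts at 0 h, such as Cxcl1, passed it only through their 48 h libraries, so the counts describe the tested genes and no more. The 48 h libraries all lay above the 0 h libraries for 8 of the 9 tested genes in WT and for the same 8 in FNcKO, the exception being Cx3cl1; over all tested genes this held for 27.5% and 20.1%. The median log2 change of the 9 genes was 5.85 in WT (5.67 with Cxcl1, which had no counts at WT 0 h, put at its lower bound) and 5.14 in FNcKO, beside 0.02 and 0.00 over all tested genes. A bulk sample cannot tell more or fewer cells of a type from more or less RNA per cell, and this holds for each of the changes below.

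**Figure D1:**
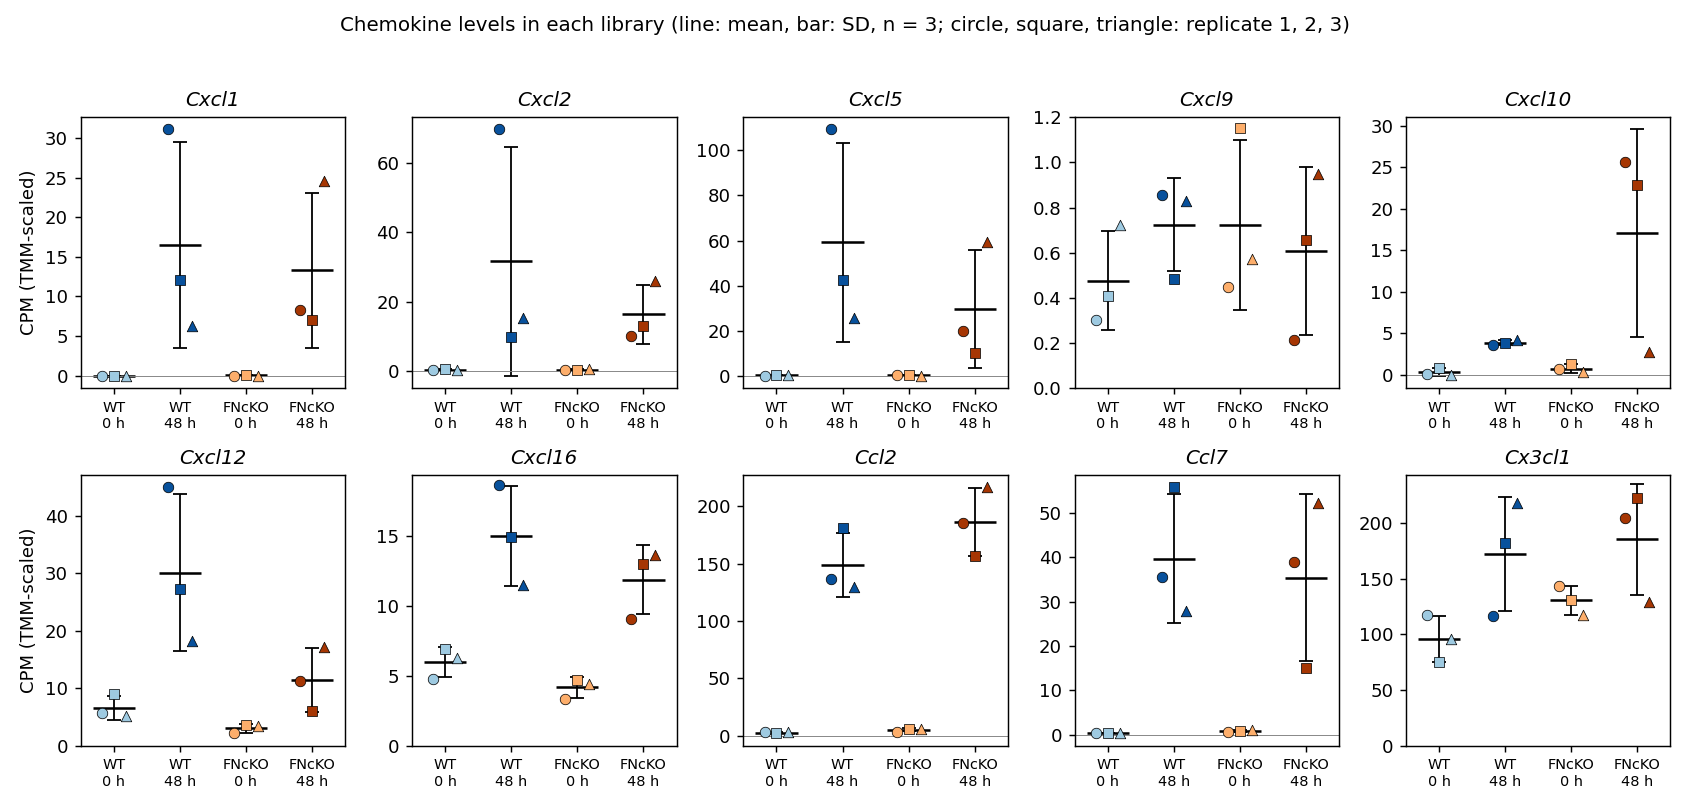
Level of each chemokine in every library, in TMM-scaled CPM on a linear axis with its own scale for each gene. Symbols are the 3 replicates of a group, the line is their mean and the bar the SD. For 8 genes the 48 h libraries lie above the 0 h libraries of the same genotype; Cxcl9 and Cx3cl1 overlap.

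Cxcl1, Cxcl2 and Cxcl5 encode the neutrophil attractants of the set. Cxcl1 had 0 counts in all 3 WT 0 h libraries, which allows up to 0.301, 0.306 and 0.361 CPM (3 counts, counting error only), and 31.1, 12.04 and 6.22 CPM in the WT 48 h libraries. It was thus at least 51.0-fold higher at 48 h, taken against 3 counts per library (edgeR adjusted p = 0.000448), and at least 28.3-fold without WT 48 h replicate 1. The FNcKO 0 h libraries held 1 count in all and the 48 h libraries 376 counts, or 8.34, 6.98 and 24.6 CPM. That ratio was 329, with an exact 95% interval of 58.7 to 13033 for counting error only (adjusted p = 0.00105). Because it rests on 1 count, it was 189 with 48 h replicate 3 left out and 209 with 0 h replicate 1 left out. With 0 h replicate 2, which holds that count, left out, the 48 h level was at least 34.8-fold higher. Cxcl1 was therefore at the limit of detection directly after surgery in both genotypes and present in each library at 48 h.

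Cxcl2 stood at 0.401, 0.611 and 0.361 CPM in WT at 0 h and at 69.6, 9.91 and 15.4 CPM at 48 h. In FNcKO it went from 0.335, 0.346 and 0.717 CPM to 10.2, 12.9 and 25.9 CPM. The groups of a genotype did not overlap, and WT 48 h replicate 1 was far above its fellow replicates. The log2 change was 6.06 in WT (SE 0.84, an approximation from the F statistic; adjusted p = 0.000378) and 5.14 in FNcKO (SE 0.85, adjusted p = 0.00145). Without WT 48 h replicate 1 the WT change was 4.74. At 0 h Cxcl2 held 13 counts over the WT libraries and 11 over those of FNcKO, so the size of both changes rests on few counts.

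Cxcl5 had the highest mean CPM of the 3 at 48 h in each genotype, although in FNcKO replicate 2 Cxcl2 was above it. Its WT libraries held 0.401, 0.611 and 0.722 CPM at 0 h and 109.0, 42.4 and 26.0 CPM at 48 h, and its FNcKO libraries 0.670, 0.577 and 0.287 CPM and then 19.95, 10.3 and 59.2 CPM. Again WT 48 h replicate 1 was the highest of its group, and FNcKO 48 h replicate 3 was the highest of the other. The log2 change was 6.66 in WT (SE 0.86, adjusted p = 0.000271) and 5.79 in FNcKO (SE 0.87, adjusted p = 0.000935). Without the highest library of each group, the changes were 5.87 and 4.81. Their size also rests on few counts at 0 h, 16 over the WT libraries and 13 over those of FNcKO. For Cxcl1 the fitted change, which depends on how 0 counts are treated and is no bound, was 10.26 in WT and 9.39 without WT 48 h replicate 1. In FNcKO it was 7.95, with 7.15 when 48 h replicate 3 was left out and 9.96 when 0 h replicate 2, the library with the single count, was left out.

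Of the ligands of Cxcr3, Cxcl10 rose, while Cxcl9 had few counts at both times. Cxcl10, an interferon-inducible chemokine, stood at 0.1002, 0.815 and 0 CPM in WT at 0 h and at 3.61, 3.79 and 4.15 CPM at 48 h, the narrowest spread of any of the set at 48 h in WT relative to its mean. In FNcKO it went from 0.670, 1.27 and 0.287 CPM to 25.7, 22.8 and 2.75 CPM. Replicates 1 and 2 of FNcKO 48 h were above every WT library, and replicate 3 was below all 3 of WT 48 h. The log2 change was 3.55 in WT (SE 0.97, adjusted p = 0.0149) and 4.47 in FNcKO (SE 0.89, adjusted p = 0.00352). The WT value rested on few counts at 0 h: it was 5.81 without WT 0 h replicate 2 and did not pass without WT 0 h replicate 1 (log2 3.13, adjusted p = 0.0580) or without both 0 h replicate 1 libraries (log2 3.12, adjusted p = 0.0774), over alternatives whose adjusted p ran from 0.000328 to 0.0774. Without FNcKO 0 h replicate 2 the FNcKO value was 5.07.

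Cxcl9, which is induced mainly by interferon gamma, had 2 to 10 counts in each of the 12 libraries. Its WT libraries held 0.301, 0.408 and 0.722 CPM at 0 h and 0.856, 0.486 and 0.829 CPM at 48 h, and its FNcKO libraries 0.447, 1.15 and 0.573 CPM and then 0.211, 0.655 and 0.951 CPM. The groups overlapped in both genotypes. When the filter was dropped, the log2 change was 0.62 in WT (SE 0.81, adjusted p = 0.616) and −0.26 in FNcKO (SE 0.81, adjusted p = 0.897), so a change was not detectable at this depth. Ifng itself had 0 counts in all 12 libraries.

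Cxcl12, a homeostatic chemokine made by many stromal and epithelial cells, stood at 5.61, 8.97 and 5.18 CPM in WT at 0 h and at 44.97, 27.2 and 18.1 CPM at 48 h. The FNcKO libraries held 2.12, 3.58 and 3.44 CPM at 0 h and 11.3, 6.00 and 17.1 CPM at 48 h. At each time the FNcKO libraries all lay below the WT libraries. The log2 change over time was 2.19 in WT (SE 0.41, adjusted p = 0.00169) and 1.92 in FNcKO (SE 0.44, adjusted p = 0.00672). The FNcKO call was lost without both 0 h replicate 1 libraries (log2 1.70, adjusted p = 0.0523, over a range of 0.000283 to 0.0523).

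Cxcl16 and Cx3cl1 are the membrane-anchored members. Cxcl16 stood at 4.81, 6.93 and 6.26 CPM in WT at 0 h and at 18.6, 14.96 and 11.5 CPM at 48 h, and in FNcKO at 3.35, 4.73 and 4.44 CPM and then at 9.08, 12.99 and 13.6 CPM. It rose by a log2 change of 1.32 in WT (SE 0.28, adjusted p = 0.00314) and 1.51 in FNcKO (SE 0.29, adjusted p = 0.00223), without overlap. Cx3cl1 was already at 117.1, 75.1 and 95.7 CPM in WT at 0 h and at 116.7, 181.8 and 218.3 CPM at 48 h. In FNcKO it stood at 143.5, 131.4 and 117.4 CPM and then at 204.9, 222.8 and 128.9 CPM. The times overlapped in both genotypes. Its log2 change was 0.84 in WT (SE 0.25, adjusted p = 0.0222) and 0.50 in FNcKO (SE 0.25, adjusted p = 0.164, approximate 95% interval −0.04 to 1.05). The WT call was lost when any one of 4 libraries was left out, with adjusted p of 0.108 without WT 0 h replicate 2, 0.0633 without WT 0 h replicate 3, 0.0526 without WT 48 h replicate 2 and 0.0964 without WT 48 h replicate 3, in a range of 0.00537 to 0.108 over all alternatives. With total counts in place of TMM scaling, Cx3cl1 passed in FNcKO as well (log2 0.76, adjusted p = 0.0327, in a range of 0.0327 to 0.418).

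Ccl2 and Ccl7, the monocyte attractants, rose with the smallest errors for their size. Ccl2 stood at 2.91, 1.94 and 2.89 CPM in WT at 0 h and at 136, 181 and 129.99 CPM at 48 h. In FNcKO it went from 3.58, 5.88 and 6.02 CPM to 185, 157 and 217 CPM. The 48 h libraries of a genotype lay within 1.5 times of each other. The log2 change was 5.85 in WT (SE 0.27, adjusted p = 4.42e-08) and 5.18 in FNcKO (SE 0.25, adjusted p = 7.51e-08). By p-value Ccl2 ranked 2 among the 14560 tested genes in WT and 3 in FNcKO.

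Ccl7 stood at 0.401, 0.306 and 0.361 CPM in WT at 0 h and at 35.5, 55.8 and 27.8 CPM at 48 h, and in FNcKO at 0.559, 0.807 and 1.15 CPM and then at 39.0, 15.1 and 52.1 CPM. No library of 48 h came near one of 0 h, although the 0 h levels rest on 10 counts over the WT libraries and 20 over those of FNcKO. The log2 change was 6.75 in WT (SE 0.55, adjusted p = 7.58e-06) and 5.41 in FNcKO (SE 0.51, adjusted p = 2.17e-05).

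**Figure D2:**
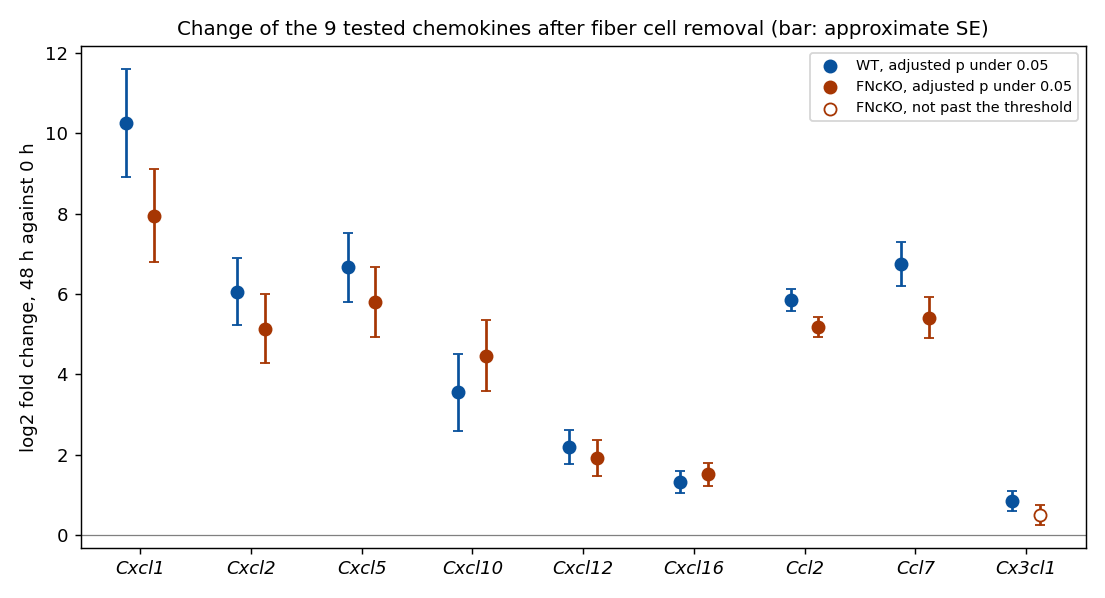
Log2 fold change from 0 h to 48 h of the 9 tested chemokines in WT (blue) and FNcKO (orange), with the approximate SE as a bar; filled points passed an adjusted p of 0.05. The changes run from 0.84 (Cx3cl1) to 6.75 (Ccl7) in WT, leaving aside Cxcl1, whose fitted values rest on 0 counts and 1 count at 0 h.

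The make-up of the chemokine transcripts turned over between the times. To compare genes, CPM were divided by the gene length given in the files. On this per-kilobase scale Cx3cl1 was the highest of the 10 at 0 h, at 30.5 ± 6.68 CPM per kb in WT and 41.6 ± 4.15 in FNcKO, and made up 78.3% ± 4.799 and 78.6% ± 5.29 of their sum. Ccl2 had the next mean at 0 h with 3.20 ± 0.689 and 6.40 ± 1.70 CPM per kb, overlapping Cxcl16 in WT but not in FNcKO. At 48 h Ccl2 was the highest on this scale, at 184.9 ± 34.5 CPM per kb in WT and 231 ± 37.1 in FNcKO, and made up 48.3% ± 8.03 and 57.3% ± 0.422 of the sum. Cx3cl1 then made up 14.9% ± 6.82 and 15.3% ± 6.22. This order and these shares depend on the division by length, which was 806 bases for Ccl2 and 3143 for Cx3cl1. In plain CPM at 48 h, Cx3cl1 was at 172.3 ± 51.4 and Ccl2 at 149.1 ± 27.8 in WT. In FNcKO they were at 185.5 ± 49.9 and 186.3 ± 29.9 CPM. The sum of the 10 levels ran from 32.6 to 44.9 CPM per kb over the WT 0 h libraries and from 313 to 431 at 48 h, and from 49.8 to 54.9 and then from 337 to 471 in FNcKO.

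Below the leading gene the order at 48 h was not settled by the replicates. In WT, Cx3cl1 (54.8 ± 16.4 CPM per kb), Ccl7 (49.6 ± 18.1), Cxcl5 (35.7 ± 26.6), Cxcl2 (29.2 ± 30.4) and Cxcl1 (17.3 ± 13.7) each overlapped the next. Cxcl16 (6.14 ± 1.46), Cxcl12 (4.204 ± 1.91) and Cxcl10 (3.50 ± 0.247) followed, again with overlap, and Cxcl9 was the lowest at 0.249 ± 0.0711 without overlap. In FNcKO, Cx3cl1 (59.0 ± 15.9), Ccl7 (44.3 ± 23.5), Cxcl5 (17.99 ± 15.6), Cxcl10 (15.5 ± 11.4), Cxcl2 (15.1 ± 7.73) and Cxcl1 (14.03 ± 10.3) overlapped from each to the next in this row. Below Cxcl1, Cxcl16 (4.86 ± 1.006), Cxcl12 (1.60 ± 0.776) and Cxcl9 (0.208 ± 0.128) followed, each without overlap with the gene next above it. Only neighbours in the order were compared. Cxcl10, higher in the order, ran from 2.50 to 23.3 CPM per kb and so overlapped Cxcl16, at 3.71 to 5.57. At 0 h, Cx3cl1 did not overlap the gene after it in either genotype. There Cxcl16 stood at 2.45 ± 0.442 in WT and 1.71 ± 0.297 in FNcKO, and each of the other 7 averaged at most 1.05 CPM per kb.

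**Figure D3:**
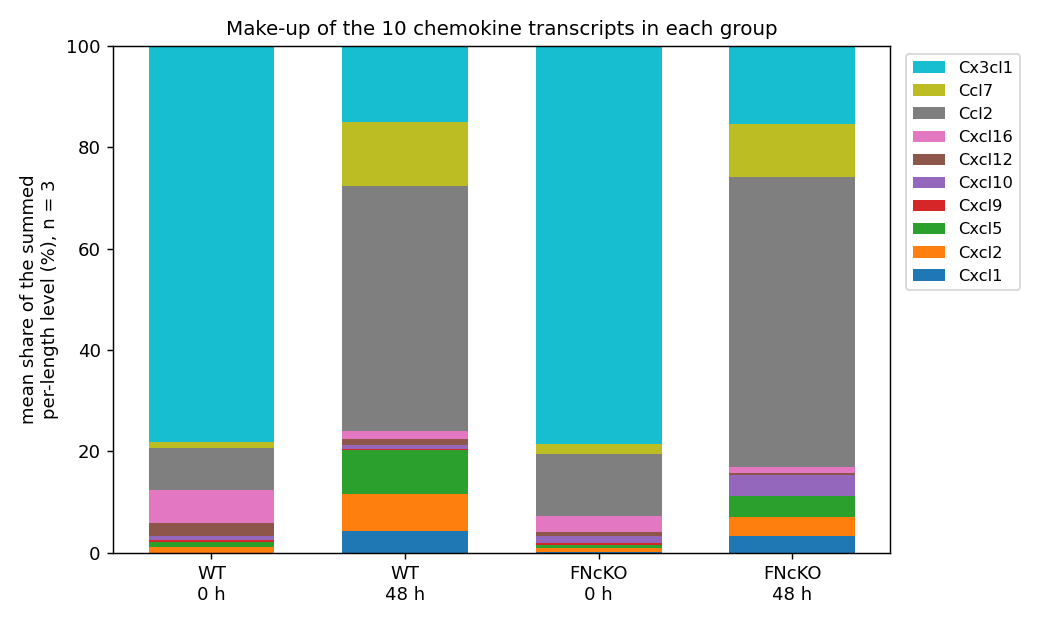
Mean share of each chemokine in the summed per-length level of the 10 genes, in percent, for the 4 groups (n = 3 libraries each). Cx3cl1 fills 78.3% and 78.6% of the bars at 0 h, and Ccl2 48.3% and 57.3% at 48 h.

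The genotypes were compared at each time. At 48 h, none of the 9 chemokines passed the test of FNcKO against WT (edgeR, adjusted p under 0.05; 0.24% of all tested genes were called). An unadjusted p under 0.05 was found for 2 of the 9, against 5.47% of all genes, and DESeq2 called none. Cxcl12 was lower in FNcKO in all 3 libraries, by a log2 of −1.39 (SE 0.40, approximate 95% interval −2.25 to −0.53, unadjusted p = 0.00393, adjusted p = 0.355). It was the only one of the 9 whose libraries did not overlap, where 9.74% of all genes did not. Cxcl10 was at 17.1 ± 12.5 CPM in FNcKO and 3.85 ± 0.272 in WT, a log2 difference of 2.14 (SE 0.75, interval 0.52 to 3.77, unadjusted p = 0.0139, adjusted p = 0.640). The intervals of the others held 0 and left room for differences of either sign. The sign turned without WT 48 h replicate 1 for Cxcl1 (0.54), Cxcl2 (0.37) and Cx3cl1 (−0.11), and also without FNcKO 48 h replicate 2 for Cx3cl1 (−0.05). For Ccl7 it turned when replicate 2 of 48 h was left out, to 0.16 for the WT library and 0.20 for the FNcKO library. The intervals ran from −1.69 to 1.08 for Cxcl1, −2.27 to 0.36 for Cxcl2, −2.30 to 0.32 for Cxcl5, −0.92 to 0.24 for Cxcl16, −0.12 to 0.76 for Ccl2, −0.96 to 0.63 for Ccl7 and −0.43 to 0.65 for Cx3cl1.

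At 0 h, none of the 9 passed either (0.144% of all tested genes were called). An unadjusted p under 0.05 was found for 2, against 11% of all genes, and DESeq2 called none. Ccl2 was higher in FNcKO, at 5.16 ± 1.37 CPM against 2.58 ± 0.556 in WT, a log2 difference of 0.99 (SE 0.27, interval 0.42 to 1.57, unadjusted p = 0.00244, adjusted p = 0.264). Cxcl12 was at 3.05 ± 0.802 CPM in FNcKO and 6.59 ± 2.07 in WT, a log2 difference of −1.12 (SE 0.44, interval −2.07 to −0.17, unadjusted p = 0.0246, adjusted p = 0.406). The libraries of the genotypes did not overlap for 5 of the 9 genes, against 16.6% of all tested genes. Ccl2, Ccl7 and Cx3cl1 were the ones with higher FNcKO libraries, and Cxcl12 and Cxcl16 those with lower ones. For Cx3cl1 the gap was narrow, 117.4 CPM in the lowest FNcKO library and 117.1 in the highest WT library. For Ccl7 it rested on 5, 7 and 8 counts in the FNcKO libraries and 4, 3 and 3 in those of WT. The edgeR intervals held 0 for Ccl7 (−0.39 to 2.74), Cxcl16 (−1.15 to 0.10) and Cx3cl1 (−0.10 to 0.99).

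The difference between the genotypes in the change over time passed the test for none of the 9 chemokines. No gene of the 14560 passed this test (0%), 735 genes (5.05%) but none of the chemokines had an unadjusted p under 0.05, and DESeq2 called 28 genes, none of them a chemokine. The FNcKO minus WT difference of the log2 changes was −0.67 for Ccl2 (interval −1.39 to 0.05, adjusted p = 0.945), −1.34 for Ccl7 (−3.09 to 0.41), −0.27 for Cxcl12 (−1.56 to 1.02) and 0.19 for Cxcl16 (−0.66 to 1.03). For Cxcl2 it was −0.92 (−3.83 to 1.98), for Cxcl5 −0.87 (−3.88 to 2.14), for Cxcl10 0.92 (−2.18 to 4.01) and for Cx3cl1 −0.34 (−1.11 to 0.43). For Cxcl1, whose fitted changes depend on how 0 counts are treated, it was −2.31 (−8.35 to 3.74). The wide intervals of Cxcl1, Cxcl2, Cxcl5, Cxcl10 and Ccl7 do not exclude a difference of several fold. These differences also moved with single libraries. With 1 library left out the value ran from −1.43 to 0.39 for Cxcl2 and from −1.85 to −0.08 for Cxcl5, in each case lowest without FNcKO 48 h replicate 3 and highest without WT 48 h replicate 1. It ran from −1.37 (without WT 0 h replicate 2) to 1.52 (without FNcKO 0 h replicate 2) for Cxcl10 and from −0.68 (without FNcKO 48 h replicate 3) to 0.13 (without WT 48 h replicate 1) for Cxcl12, so that the sign turned for Cxcl2, Cxcl10 and Cxcl12. The genotype difference averaged over both times, a comparison added after the data were seen, called 70 genes (0.481%) and no chemokine. There Cxcl12 stood at −1.25 (SE 0.30, unadjusted p = 0.000954, adjusted p = 0.103), Ccl2 at 0.66 (SE 0.17, adjusted p = 0.129) and Cxcl10 at 1.69 (SE 0.66, adjusted p = 0.402).

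The replicates of 48 h differed in which chemokines were high. WT 48 h replicate 1 had the highest level of 6 of the 10 genes in its group, and FNcKO 48 h replicate 3 that of 8 of the 10. The sum of Cxcl1, Cxcl2 and Cxcl5 was 209.7, 64.4 and 47.7 CPM in the WT 48 h libraries and 38.5, 30.1 and 109.7 CPM in the FNcKO 48 h libraries, against 0.802 to 1.22 CPM at 0 h. The sum of 7 neutrophil markers (S100a8, S100a9, Csf3r, Mmp8, Ngp, Camp and Retnlg) was 252, 55.8 and 49.8 CPM and 36.3, 33.9 and 93.6 CPM in the same libraries, against 1.29 to 2.65 CPM at 0 h. At 0 h, 4 or 5 of these 7 markers had no counts in a library, and at 48 h, 1 or 2. Replicate 1 of WT and replicate 3 of FNcKO were thus the highest for both sums, and the part of the neutrophil markers in the level of the 3 ligands was not tested. The same libraries were the highest of their groups for monocyte and macrophage markers (960 and 541 CPM) and for general leukocyte markers (257 and 138 CPM). The sum of Ccl2 and Ccl7 was 172, 237 and 158 CPM in the WT 48 h libraries, with replicate 2 the highest, and 224, 172 and 269 CPM in those of FNcKO, with replicate 3 the highest as for the 3 ligands. Cx3cl1 was lowest where the 3 ligands were highest, at 116.7 CPM in WT replicate 1 and 128.9 CPM in FNcKO replicate 3.

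**Figure D4:**
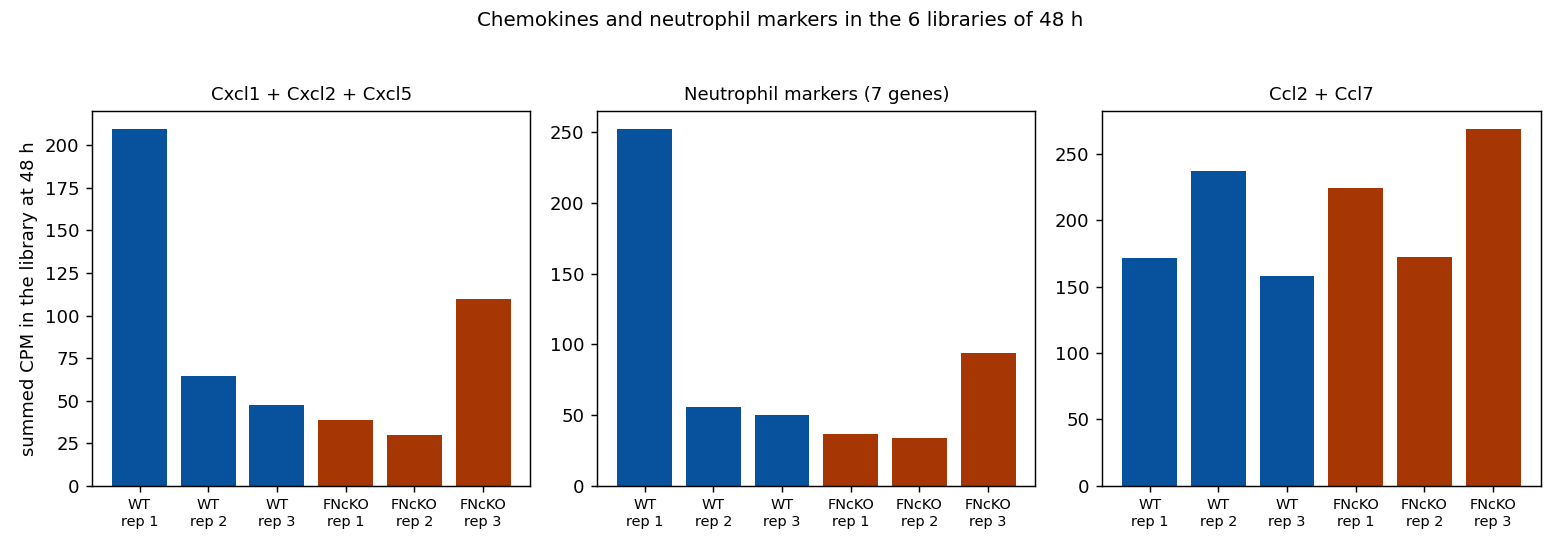
Summed CPM in each of the 6 libraries of 48 h for Cxcl1, Cxcl2 and Cxcl5 (left), 7 neutrophil markers (middle) and Ccl2 with Ccl7 (right), as bars from 0. WT replicate 1 and FNcKO replicate 3 are the highest of their groups in the left and middle panels, while on the right WT replicate 2 and again FNcKO replicate 3 are the highest.

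Markers of other leukocytes moved over the same time. The sum of 15 monocyte and macrophage markers, among them the receptor gene Ccr2, was 53.7 to 170 CPM over all 0 h libraries, 342 to 960 CPM in WT at 48 h and 237 to 541 CPM in FNcKO at 48 h. Of the 14 tested, 8 rose in WT and the same number in FNcKO, and none fell. In 10 of the 12 libraries, 1 or 2 of the 15 had no counts. Among all tested genes 19.1% were called higher in WT and 14.9% in FNcKO, and 13.5% and 9.9% lower. General leukocyte markers (Ptprc, Coro1a, Laptm5 and Cd53) summed to 7.26 to 31.2 CPM at 0 h, 79.3 to 257 CPM in WT at 48 h and 46.2 to 138 CPM in FNcKO at 48 h. The 8 T and NK cell markers summed to 0.873 to 2.76 CPM per library, 1 to 5 of them were at 0 counts in each library, and none passed the filter. Lens fiber markers fell, in 5 of 10 cases in WT and 4 of 10 in FNcKO, with sums from 37614 to 107048 CPM at 0 h and from 2172 to 33465 CPM at 48 h. At 48 h the fiber sum was lowest in WT replicate 1 (3332 CPM) and FNcKO replicate 3 (2172 CPM). Pigment cell markers were 192 to 503 CPM in WT and 22.9 to 72.1 CPM in FNcKO at 48 h, and 4 of the 9 were called lower in FNcKO. Of all tested genes, 0.24% were called between the genotypes at 48 h, in either direction. The part of these cell types in the chemokine levels was not tested.

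Other chemokine ligands rose alongside. Of 28 further ligands, 16 passed the filter. In WT 12 of the 16 rose and none fell, and in FNcKO 11 rose and none fell. Over all tested genes 19.1% were called higher in WT and 14.9% in FNcKO, and 13.5% and 9.9% lower. Ligands with almost no counts at 0 h, such as Ccl17 and Ccl22, passed the filter only through their 48 h libraries. The median log2 change of the 16 was 4.75 in WT and 4.35 in FNcKO, beside 0.02 and 0.00 over all tested genes. With genes at 0 counts put at their bound it was 4.02 and 3.93. Ccl6, a myeloid chemokine, went from 3.07 ± 0.699 to 153 ± 61.7 CPM in WT (log2 5.65, adjusted p = 1.22e-05) and from 2.25 ± 0.371 to 110 ± 63.5 CPM in FNcKO (log2 5.59, adjusted p = 1.71e-05). Cxcl3, a further Cxcr2 ligand, went from 0.221 ± 0.131 to 48.7 ± 52.4 CPM in WT (log2 7.74, adjusted p = 0.000325) and from 0.282 ± 0.279 to 33.1 ± 12.5 CPM in FNcKO (log2 6.80, adjusted p = 0.000857). Ccl24, an eosinophil attractant that acts on Ccr3, rose by a log2 of 6.55 and 6.01, Ccl9 by 4.63 and 4.71, and Ccl5 by 4.86 and 3.997. Some of these changes rest on few counts at 0 h. Over the WT and the FNcKO libraries Cxcl3 held 6 and 7 counts there, Ccl24 7 and 3, and Ccl5 10 and 11. The 4 that did not pass in WT, named after their values were seen, were Cxcl14, Ccl25, Ccl27a and Ccl28, and Ccl17 joined them in FNcKO (log2 3.86, adjusted p = 0.0522). The 12 ligands under the filter had at most 29 counts in a library, and 4 of them had none at all.

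Among 17 chemokine receptors, 6 passed the filter, 4 rose in WT and none fell, and in FNcKO 4 rose and 1 fell. The shares of all tested genes called higher were 19.1% in WT and 14.9% in FNcKO, and those called lower 13.5% and 9.9%. Ccr2, the receptor of Ccl2 and Ccl7, stood at 0.396 ± 0.088 CPM in WT at 0 h and 35.4 ± 21.8 at 48 h (log2 6.45, adjusted p = 3.77e-05), and at 0.555 ± 0.402 and then 11.6 ± 5.87 CPM in FNcKO (log2 4.33, adjusted p = 0.000543). Cxcr2, the receptor of Cxcl1, Cxcl2 and Cxcl5, went from 5.82 ± 2.34 to 43.4 ± 47.8 CPM in WT (log2 2.90, adjusted p = 0.0114) and from 2.71 ± 0.784 to 16.6 ± 8.62 CPM in FNcKO (log2 2.62, adjusted p = 0.0294). Cxcr4, the receptor of Cxcl12, rose by a log2 of 2.90 in WT (adjusted p = 0.000698) and 1.36 in FNcKO (adjusted p = 0.0415). Ccr1, a receptor of Ccl3 and Ccl5, rose by a log2 of 4.58 in WT and 3.98 in FNcKO.

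The receptors of the remaining chemokines did not rise past the threshold. Cx3cr1, the receptor of Cx3cl1, fell by 1.53 on the log2 scale in FNcKO, from 12.7 ± 4.78 to 4.36 ± 1.22 CPM (adjusted p = 0.0223). In WT its level was 12.96 ± 2.45 and then 7.91 ± 4.57 CPM (log2 −0.71, adjusted p = 0.218), and the difference between the genotypes was not called. Cxcr3 had 7 counts over all 12 libraries and Cxcr6, the receptor of Cxcl16, 57 counts, and neither passed the filter. Of 8 atypical receptors and proteases, 7 were tested and 1, Ccrl2, rose in each genotype (log2 1.92 in WT, adjusted p = 0.0262, and 5.11 in FNcKO, adjusted p = 0.00058). That count is near the share of all tested genes called higher, which was 19.1% in WT and 14.9% in FNcKO. The change of Ccrl2 in FNcKO is a fitted value that rests on 2 counts over the 0 h libraries, against 14 in WT. At 48 h Ccrl2 stood at 1.91 ± 1.00 CPM in WT and 3.24 ± 0.543 CPM in FNcKO. Ackr3, which takes up Cxcl12, stood at 37.7 ± 0.796 and 35.0 ± 2.45 CPM in WT (log2 −0.11, adjusted p = 0.645) and did not pass in FNcKO (log2 0.26, adjusted p = 0.261). The proteases that can release Cx3cl1 and Cxcl16 had log2 changes of 0.22 and 0.03 for Adam10 and of 0.09 and 0.00 for Adam17, and none of these passed.

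**Figure D5:**
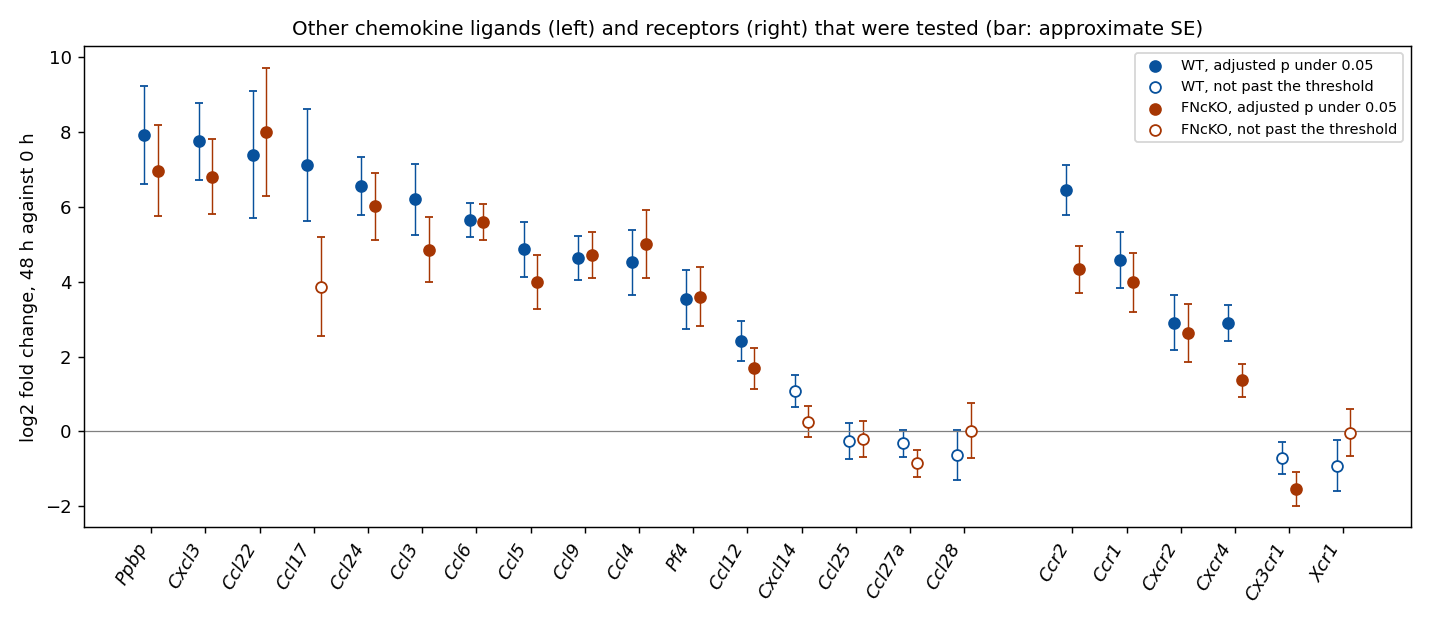
Log2 fold change from 0 h to 48 h of the 16 further ligands (left) and 6 receptors (right) that were tested, with the approximate SE as a bar; filled points passed an adjusted p of 0.05. In WT 12 ligands and 4 receptors rose, where 19.1% of all tested genes were called higher. Ccl22 and Ccl17 had no counts at WT 0 h, so their points are fitted values and not bounds.

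Genes of the NF-κB pathway and of its feedback rose in both genotypes, 14 of 17 in WT and 14 of 17 in FNcKO, with none lower. All tested genes were called higher in 19.1% of cases in WT and 14.9% in FNcKO, and lower in 13.5% and 9.9%. The median log2 change of the 17 was 1.99 and 2.05, beside 0.02 and 0.00 over all tested genes. Bcl3, a nuclear partner of NF-κB subunits, went from 0.571 ± 0.0532 to 42.5 ± 3.163 CPM in WT (log2 6.19, adjusted p = 2.56e-08) and from 1.09 ± 0.331 to 39.9 ± 3.84 CPM in FNcKO (log2 5.17, adjusted p = 7.51e-08). Nfkb2 and Relb, subunits of the non-canonical branch, rose by a log2 of 2.02 and 2.29 in WT and by 2.49 and 2.51 in FNcKO. Nfkbia, the inhibitor that NF-κB itself induces, rose by 1.99 and 1.82, and the adhesion molecule Icam1 by 1.99 and 3.60. Those that did not pass, named after their values were seen, were Rel, Traf1 and Tnfaip3 in WT and Rel, Nfkbib and Il1b in FNcKO.

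Of 18 interferon pathway genes, 16 were tested, 13 rose in WT and 11 in FNcKO, and none fell. Again 19.1% of all tested genes in WT and 14.9% in FNcKO were called higher, and 13.5% and 9.9% lower. The median log2 change of the 16 was 1.32 and 1.37, beside 0.02 and 0.00 over all tested genes. The guanylate-binding proteins Gbp2 and Gbp3 rose by a log2 of 2.11 and 2.81 in WT and by 2.85 and 4.24 in FNcKO. The transcription factors Irf7, Irf1 and Stat2 rose by 3.06, 1.46 and 1.52 in WT and by 2.86, 1.36 and 1.31 in FNcKO. The interferon genes Ifng and Ifnb1 had 0 counts in all 12 libraries, which allows up to 0.285 to 0.430 CPM depending on the library. In none of the ligand, receptor, NF-κB and interferon lists was a gene called between the genotypes at 48 h or at 0 h.

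For each chemokine the genes with the most similar pattern were sought by the mean absolute difference of log2 CPM over the 12 libraries, each gene centred on its own mean. The nearest gene to Ccl2 was Ccl7 and the nearest to Ccl7 was Ccl2, at 0.265, where the median distance of all tested genes from Ccl2 was 2.72. Bcl3 and Tnfaip2 came next for both. Cxcl1 lay closest to Il1rn (0.332), Fxyd5 and Cxcl5, Cxcl2 to Irg1 (0.353), Socs3 and Chil1, and Cxcl5 to Ccl6 (0.320), Srgn and Sprr1a. Cxcl10 had no gene as close, with Gbp4 at 0.593, Mettl7b at 0.770 and Rsad2 at 0.787. The 2 FNcKO 48 h libraries with high Cxcl10 held 4.86 and 5.89 CPM of Gbp4 and 16.2 and 9.28 CPM of Rsad2. Replicate 3 held 1.06 and 1.48 CPM. Both genes were picked for their closeness to Cxcl10 over these same libraries, so this likeness is no separate finding. In the WT 48 h libraries Gbp4 stood at 1.81, 2.33 and 0.518 CPM and Rsad2 at 13.02, 8.74 and 4.56 CPM. Cxcl10 stood at 3.61, 3.79 and 4.15 CPM there. Cxcl12 lay closest to Epsti1 (0.258), Ptges and Inpp5d, and Cxcl16 to Esyt1 (0.148), Pdss1 and Bhlhe40. Cx3cl1 lay closest to Arhgap27 (0.169), Vim and Ddah1. These distances describe the 12 libraries, and genes with a small range come out close to many others, as the median distance of 0.537 from Cx3cl1 shows.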

How the data were processed

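RNA from 12 libraries was analysed. For each library the authors deposited a whole-number read count per gene for 24147 genes, with coordinates and a gene length. Beside each count stands what the file headers call RPKM, which the authors made from that count: dividing by length and library sum gave the deposited RPKM to within a relative difference of 5.11e-15. RPKM had no other use. The tools named in the submitters' processing notes include TopHat2 2.1.0, HTSeq 0.6.1p1 and edgeR 3.16.5, and the build named is mm10. Annotation and strand setting: not given in the sources used here.

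Counts were fitted in R 4.3.3 with edgeR 4.0.16 (filterByExpr, which kept 14560 genes, TMM factors of 0.754 to 1.165, robust quasi-likelihood fit of 4 group means to all 12 libraries). P-values were adjusted by Benjamini-Hochberg over all tested genes of each of the 5 comparisons, with a threshold of 0.05. The SE is the size of the log2 value divided by the square root of F, an approximation, and the 95% interval is built on it with a t quantile. The fit was tested on simulated counts. DESeq2 1.42.0, other scalings and filters and left-out libraries were alternatives. Entries with a repeated symbol numbered 163, with at most 0.163% of a library's counts. No 2 libraries of the same group agreed within sampling noise. Replicate numbers showed no consistent pairing of the libraries, which does not exclude that some shared an animal or a day.

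The chemokines, the gene lists and the tests were chosen with earlier results of these data known. A gene of the further lists is not reported here and is left out of their counts. In each further list at most 5 genes were named by rule, those with the lowest adjusted p in WT and then in FNcKO, always with the receptors of the chemokines and Adam10 and Adam17. Further genes of these lists, mostly those that did not pass, were named after their values were seen, and of the marker lists the members summed are named where few. Of 10 vascular endothelial markers 5 rose in WT and 7 in FNcKO. Of 7 corneal epithelial markers 5 were tested, and 1 fell in WT and 2 in FNcKO. Of 8 lens epithelial markers 3 fell in WT and 7 in FNcKO. Of 5 tested neutrophil markers 5 rose in WT and 4 in FNcKO, and of 4 general leukocyte markers 4 and 3. Of 9 pigment cell markers 4 rose and 1 fell in WT, and 2 fell in FNcKO. Beside these counts, 19.1% of all tested genes were called higher in WT and 14.9% in FNcKO, and 13.5% and 9.9% lower. Markers with almost no counts at 0 h, such as Mmp8, passed the filter only through their 48 h libraries.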

Additional observations from a re-analysis of the deposited data

How the results depend on the processing

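The number of chemokines called over time was 8 or 9 in WT and 7 to 9 in FNcKO over all alternatives, and 0 in every alternative of the genotype comparisons and of the difference of responses. No value of a single chemokine that had been called changed sign, whereas several of the genotype differences, none of them called, did. Counts over all genes moved more. From 0 h to 48 h in FNcKO 3611 genes were called, 2299 without both 0 h replicate 1 libraries, and 2232 to 4095 with 1 library left out. Between the genotypes at 48 h the count was 35, against 119 with DESeq2, 7 with only the groups compared, 14 without both 0 h replicate 1 libraries, 70 averaged over both times and 10 to 46 with 1 library left out. At 0 h it was 21, against 10 with total counts, 129 with DESeq2, 2 without both 0 h replicate 1 libraries and 2 to 28 with 1 library left out. The difference of responses called 0 genes, 28 with DESeq2 and 0 to 1 with 1 library left out. The cause was not tested. Total counts moved the median log2 change of all genes from 0.02 to 0.23 in WT and from 0.00 to 0.29 in FNcKO, and the share of calls that were higher from 58.5% to 76.3% and from 60.1% to 82.4%.

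Same-numbered libraries deviated together (correlation over 0.1) in 3 of 12 pairs, and 2 of 12 libraries correlated best with their own number. With the replicate block the call changed in 0 of 45 chemokine results, and the difference of responses called 1 gene. With only the 0 h groups in the fit, Cxcl1, Cxcl2, Cxcl5, Cxcl10 and Ccl7 fell under the filter and gave no value. Depth limits Cxcl9, and Cxcl1, Cxcl2, Cxcl5, Cxcl10 and Ccl7 at 0 h, where a library held few or no counts.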
